A study of Mus musculus with 12 samples.

Results

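Lymphoid priming is the low expression of lymphoid genes in blood stem and progenitor cells before they enter the lymphoid lineage. Here it was followed through 10 genes out of the 49585 genes of the count data. The genes were listed by name, as regulators known from HSCs set against B-lineage genes that appear in single samples, so that this contrast was part of the choice. They comprise the regulators Ikzf1, Satb1, Tcf3 and Notch1, the cytokine receptor gene Il7r, the recombination genes Dntt and Rag1, and the B-lineage genes Ebf1, Cd79b and Ighm. HSCs (bone marrow cells that were Lin-, Sca1+, ckit+, CD135- and CD150+ and, per the methods, comprise LT-HSCs as well as MPP2 cells) were sorted from 6 WT and 6 Pon2-/- mice that were 10 to 14 weeks old. The labels give C57BL/6J as the background of all mice, and the Pon2-/- mice carry a gene trap vector with a β-geo cassette flanked by loxP sites in intron 2 of Pon2, which lowers the amount of the protein without deleting the gene. Each sample is 1 mouse, for which 8 wells with 10 cells each were sorted for Smart-seq2 RNA-seq, and the counts were given per mouse, so that wells could not be compared. A sample therefore rests on few cells.

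In the bone marrow, HSCs give rise to multipotent progenitors, some of which take up lymphoid genes and become lymphoid-primed progenitors. Ikzf1 (Ikaros), Satb1 and Tcf3 (E2A) are nuclear regulators that act from the stem and multipotent progenitor stage on, and Notch1 is the receptor that directs progenitors to the T lineage. Later, the IL-7 receptor carries the survival signal of early lymphoid cells, Rag1 with Rag2 and the polymerase TdT (Dntt) build the antigen receptor genes, and Ebf1 with Pax5 fixes the B-cell fate. Cd79b and Ighm encode parts of the B-cell receptor, the signalling chain Igβ and the constant region of the μ heavy chain.

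The total count per sample was 12967791 to 24228280, and 13941 to 15656 genes had at least 1 count. Levels are given as CPM, counts per 1000000 counts after TMM scaling. Where a member had 0 counts in a sample, up to 3 counts are still allowed, which is 0.124 to 0.231 per 1000000 of the sample's total count and covers counting error only, because PCR copies are not independent molecules. Pon2 was 56.4 to 202.0 CPM in WT and 1.16 to 33.1 CPM in Pon2-/- HSCs, without overlap. Of 18 HSC markers, 17 or 18 had at least 10 counts in every sample, and their summed level was 3133 to 3876 CPM. Among them, Kit was 259 to 655 CPM, Ly6a (Sca1) 143 to 379 CPM, Slamf1 (CD150) 31.0 to 158 CPM, Procr 33.1 to 174 CPM and Mecom 121 to 339 CPM. The gene for CD135, the surface protein that the sort left out, was nevertheless counted everywhere, and Flt3 had 4.59 to 49.3 CPM in WT and 26.7 to 65.0 CPM in Pon2-/- HSCs. Some samples stood apart in lymphoid genes. Pon2-/- replicate 3 held 181116 counts of Ighm, and Pon2-/- replicate 5 held most of the counts of Dntt and all of those of Il7r, so that results were also computed without these 2 samples.

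Promoter sequences are shown for the members whose counts are discussed most below, Ikzf1, whose genotypes were apart, and Il7r, Dntt and Rag1, which were counted in few samples. They come from RefSeq (GRCm38.p6), run 5′ to 3′ on the gene's strand and span 250 bases before to 50 bases after a transcription start. Of the 10 members, 8 were matched, with 14 start sites in all, and no entry was found for Cd79b and Ighm. Capitals mark matches on either strand to the E-box CANNTG, the kind of site bound by E proteins such as Tcf3, or to the Ikaros core TGGGAA. The windows are chr11:11685675-11685974 (plus strand) for Ikzf1, chr15:9529827-9530126 (minus strand) for Il7r, chr19:41029025-41029324 (plus strand) for Dntt and chr2:101649483-101649782 (minus strand) for Rag1.
Ikzf1: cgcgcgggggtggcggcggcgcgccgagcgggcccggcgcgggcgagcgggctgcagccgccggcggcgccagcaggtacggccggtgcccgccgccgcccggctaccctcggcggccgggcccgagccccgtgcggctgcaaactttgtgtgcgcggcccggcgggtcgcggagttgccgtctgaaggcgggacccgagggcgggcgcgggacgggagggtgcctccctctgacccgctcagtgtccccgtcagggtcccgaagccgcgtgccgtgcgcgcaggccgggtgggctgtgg
Il7r: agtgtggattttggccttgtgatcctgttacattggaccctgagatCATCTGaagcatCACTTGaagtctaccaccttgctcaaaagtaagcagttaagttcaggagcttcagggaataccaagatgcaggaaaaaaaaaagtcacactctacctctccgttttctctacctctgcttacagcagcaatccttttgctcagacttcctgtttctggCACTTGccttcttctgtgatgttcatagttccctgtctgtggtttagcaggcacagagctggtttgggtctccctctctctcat
Dntt: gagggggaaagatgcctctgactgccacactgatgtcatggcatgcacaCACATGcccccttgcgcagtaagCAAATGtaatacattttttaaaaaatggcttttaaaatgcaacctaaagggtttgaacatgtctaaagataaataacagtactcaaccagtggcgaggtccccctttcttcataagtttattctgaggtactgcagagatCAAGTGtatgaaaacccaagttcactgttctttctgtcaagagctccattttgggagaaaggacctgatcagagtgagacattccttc
Rag1: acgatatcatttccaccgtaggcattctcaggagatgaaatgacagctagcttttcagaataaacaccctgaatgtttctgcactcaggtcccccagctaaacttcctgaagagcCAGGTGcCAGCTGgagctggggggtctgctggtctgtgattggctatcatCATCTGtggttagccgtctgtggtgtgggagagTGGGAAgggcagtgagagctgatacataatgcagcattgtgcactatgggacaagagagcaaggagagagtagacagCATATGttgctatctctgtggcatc
The Ikzf1 window held neither motif. The Il7r and Dntt windows held 3 E-boxes each, and the Rag1 window held 4 E-boxes, among them CAGGTG, and 1 Ikaros core. Over all members, 9 of 14 start sites had an E-box, against 72.31% of 32851 promoters of the same length. CAGGTG, which is also an E-box, was found at 3 of 14 start sites against 20.21% of promoters, and the Ikaros core at 4 of 14 against 25.56%. The palindromic EBF1 motif was found at 0 of 14 start sites and in 0.9% of promoters. Such matches describe the letters only.

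First, it was determined in how many samples each member was counted. Ikzf1, Tcf3, Notch1 and Cd79b had at least 10 counts in all 12 samples, a property shared by 29.8% of the genes with at least 1 count. Ighm reached 10 counts in 11 samples, Satb1 in 10 and Ebf1 in 7. The genes of the later steps were sparse, with at least 10 counts of Dntt in 3 samples and of Il7r and Rag1 in 1 sample each. For Il7r, Rag1 and Ighm, at least 90% of all counts came from 1 sample, which held for 13.5% of the genes with at least 10 counts. The regulators also varied, with a highest-to-lowest ratio of CPM of 18.4 for Notch1 over the 12 samples and a coefficient of variation of 85.1% for Satb1, against 35.2% for Ikzf1.

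**Figure D1:**
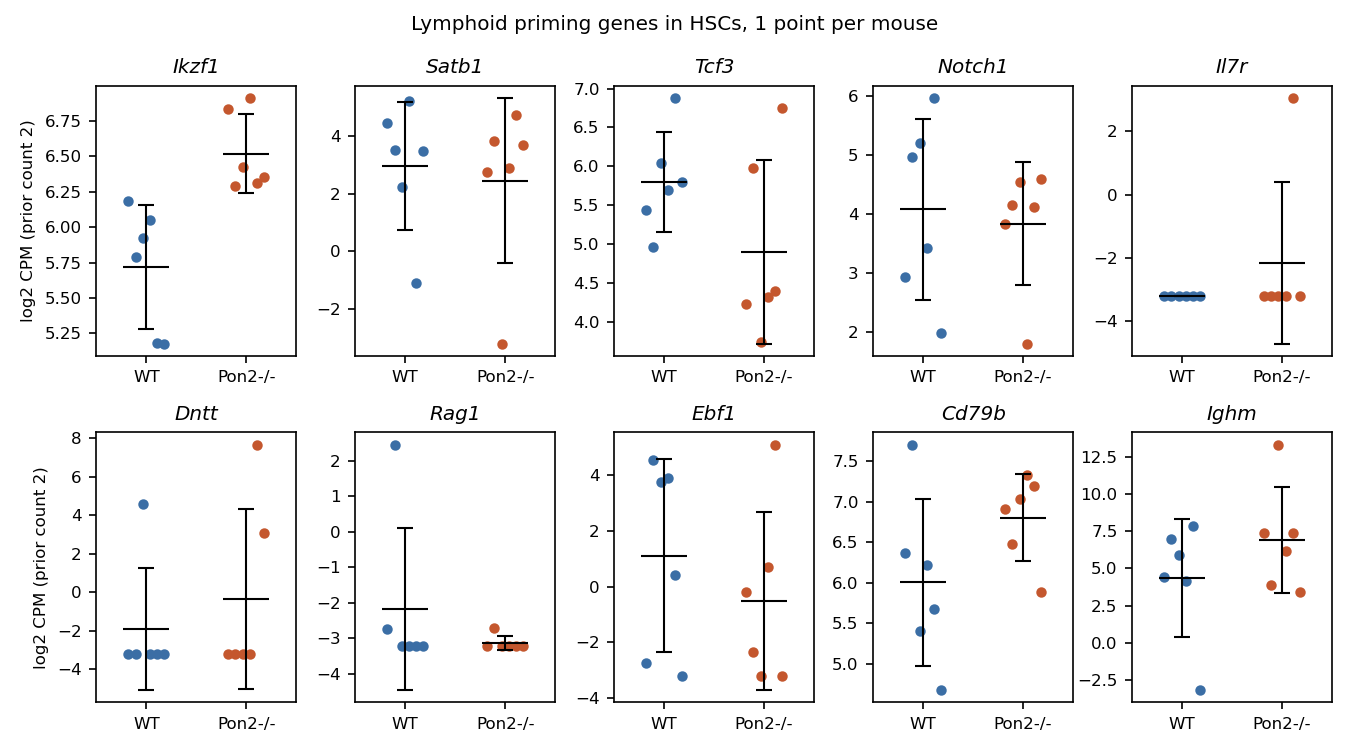
Log2 CPM (prior count 2) of the 10 members by genotype, with 1 point per mouse and bars for mean ± SD (n = 6); each panel has its own axis. Ikzf1 is the member whose genotypes do not overlap, with 36.1 to 72.4 CPM in WT and 78.2 to 120.0 CPM in Pon2-/- HSCs, and Il7r and Rag1 rest on 1 sample with more than 1 count.

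Expression was compared between the genotypes with edgeR's quasi-likelihood test on 11848 genes after a filter on low counts, which removed Il7r, Dntt and Rag1. A gene was called when its FDR (Benjamini-Hochberg) was under 0.05 and its log2 fold change exceeded 1 in either direction. Of all genes tested, 24 (0.203%) were called, 0.127% as higher and 0.076% as lower in Pon2-/- HSCs, and 0 of the 7 tested members were among them. DESeq2, which called 1.77% of the genes that it tested, and limma voom also called 0 members. However, DESeq2 gave no p for Ighm, Il7r, Dntt and Rag1, and limma voom did not test Il7r, Dntt and Rag1, so these could not be called. DESeq2 without its cutoff for outlying counts called 5.21% of genes and 1 member, Il7r. At an unadjusted p below 0.05, edgeR gave 2 of the 7 members (Ikzf1 and Ighm), against 3.13% of all genes tested. The log2 fold change was above 0 for 3 and below 0 for 4 tested members, with a median of -0.35 against -0.01 over all genes tested. In simulated data of this design, edgeR recovered 38.8% of the genes changed 4-fold, and a member without a call may therefore still differ.

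**Figure D2:**
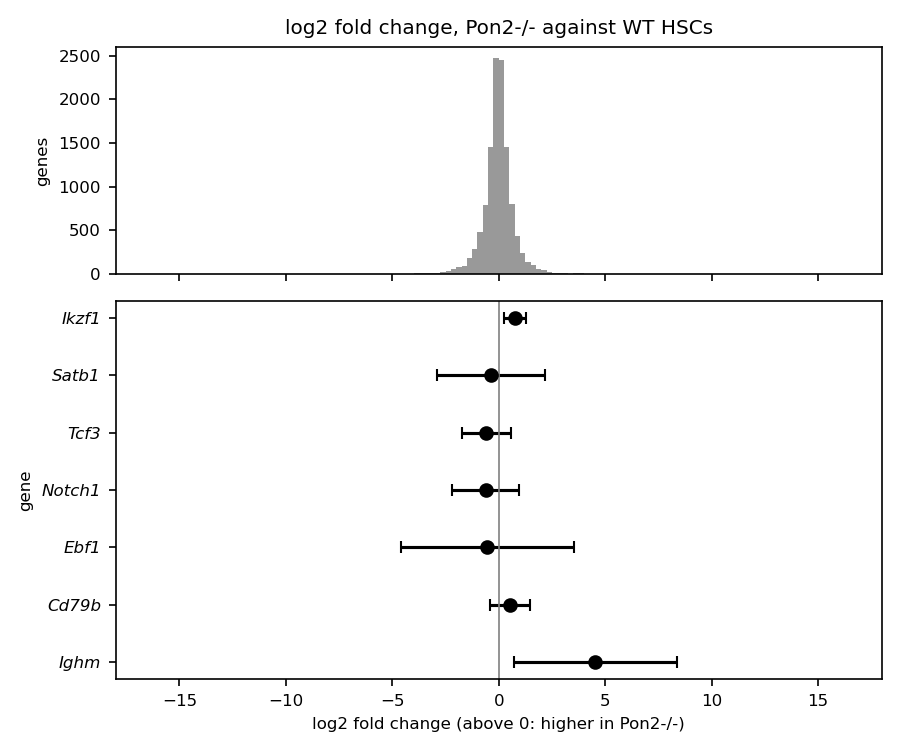
Log2 fold change of Pon2-/- against WT HSCs from edgeR. The upper panel counts all 11848 genes tested by their log2 fold change, and the lower panel gives the 7 tested members with 95% confidence intervals; those of Ikzf1 (0.24 to 1.30) and Ighm (0.70 to 8.38) lie above 0, and the other 5 include 0.

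Ikzf1 (chr11:11685003-11772926, plus strand, 10 exon blocks in GENCODE M21, GRCm38) encodes Ikaros, a zinc-finger protein required for lymphoid development. Its lowest, median and highest level was 36.1, 57.8 and 72.4 CPM in WT and 78.2, 83.6 and 120.0 CPM in Pon2-/- HSCs. The lowest Pon2-/- sample exceeded the highest WT sample, which held for 0.388% of the genes tested and for no other tested member, while genotypes without overlap in either direction made up 0.633%. The mean (± SD, n = 6) of 93.0 ± 18.7 CPM in Pon2-/- HSCs was set against 54.4 ± 15.3 CPM in WT HSCs, a 1.71-fold difference (log2 fold change 0.77, SE 0.25, unadjusted p = 0.00758 and Benjamini-Hochberg adjusted p = 1.00 in edgeR's quasi-likelihood test). The two-sided exact permutation test on log2 CPM gave p = 0.00216, the smallest value that 924 relabellings can give, and 5.87% of the genes tested had a p below 0.05. DESeq2 gave an adjusted p of 0.0295 with a log2 fold change of 0.78, which lies below the threshold of 1, and 1.87% of its genes had an adjusted p below 0.05. Over all alternatives, the adjusted p was 0.0107 to 1.00 and the log2 fold change 0.67 to 0.87. Pon2-/- replicates 3 and 5 were the samples with the highest counts of Ighm, Dntt and Ebf1. Without them, the log2 fold change was 0.85, and the exact permutation test of 6 against 4 samples gave p = 0.00952. Pon2-/- replicate 4 was kept, although its 25 B-lineage markers (below) summed to 1659 CPM, against 1152 CPM in replicate 5. It had the highest level of Ikzf1 (120.0 CPM), followed by Pon2-/- replicate 1 (113.7 CPM). Over the 12 samples, Ikzf1 and the summed B-lineage markers had a Spearman correlation of 0.48. The part of B-lineage cells in the level of Ikzf1 was not tested.

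The other Ikaros family members showed no such separation. Ikzf2 (Helios) was 28.9 to 143 CPM in WT and 43.4 to 238 CPM in Pon2-/- HSCs (log2 fold change 0.28, SE 0.46), and Ikzf5 was below 10 CPM in every sample. Ikzf4 had at least 10 counts in 6 samples and Ikzf3 (Aiolos), a B- and T-cell member of the family, in 3. A direct test of Ikzf1 against its family was not made. Of all genes tested, Nfe2l2 (r = 0.89), Aif1 (r = 0.87) and Gm13822 (r = 0.87) had the log2 CPM most like that of Ikzf1 over the 12 samples, which include the difference between the genotypes.

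Satb1 (chr17:51736187-51833290, minus strand) encodes a chromatin organizer of lymphoid progenitors and T cells. Its lowest, median and highest level was 0.363, 11.2 and 36.8 CPM in WT and 0, 10.1 and 26.4 CPM in Pon2-/- HSCs, so that the genotypes overlapped over most of their range. WT replicate 5 held 5 counts and Pon2-/- replicate 3 held 0. The log2 fold change was -0.35 (SE 1.18, 95% confidence interval -2.88 to 2.18), and its sign changed when WT replicate 4 was left out (0.18). Of all genes tested, those most like Satb1 over the 12 samples were Josd1 (r = 0.97), 1110038B12Rik (r = 0.95) and Hmgn5 (r = 0.92). These values include WT replicate 5 and Pon2-/- replicate 3, and their part in r was not tested.

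Tcf3 (chr10:80409514-80433647, minus strand) encodes the E2A proteins E12 and E47, basic helix-loop-helix factors needed for B-cell development. The WT samples had 31.1, 53.7 and 117.3 CPM and the Pon2-/- samples 13.3, 20.4 and 108.0 CPM as lowest, median and highest level. In Pon2-/- HSCs, 4 samples had 234 to 453 counts and lay below every WT sample, and the other 2 had 63.0 and 108.0 CPM. The difference was not significant (log2 fold change -0.58, SE 0.54, 95% confidence interval -1.74 to 0.58; two-sided exact permutation test p = 0.134), and without Pon2-/- replicate 6 the exact permutation test gave p = 0.0238 (-1.27 on the log2 CPM scale). The E protein genes Tcf4 (57.8 to 139 CPM in WT and 67.7 to 158 CPM in Pon2-/- HSCs) and Tcf12 (3.95 to 85.8 CPM and 12.2 to 71.7 CPM) overlapped between the genotypes. Limd1 had the pattern most like that of Tcf3 (r = 0.91).

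Notch1 (chr2:26457903-26516663, minus strand) was 3.87, 20.9 and 62.6 CPM in WT and 3.40, 17.6 and 24.0 CPM in Pon2-/- HSCs as lowest, median and highest level. WT samples spanned a wide range, from 63 counts in replicate 6 to 916 counts in replicate 3, whereas 5 of the 6 Pon2-/- samples lay between 14.2 and 24.0 CPM. The log2 fold change was -0.61 (SE 0.73, 95% confidence interval -2.19 to 0.96). The 2 transcripts 0610009E02Rik and Gm13568 overlap 7.5% and 2.9% of its exon bases on the opposite strand, from which Smart-seq2 reads cannot be told apart. B230354K17Rik had the pattern most like that of Notch1 (r = 0.88).

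Of 28 other genes of the Notch pathway, 17 were tested and 0 called, and their median log2 fold change was -0.09. The coactivator gene Maml2 had the smallest unadjusted p (0.0365), with 26.3, 41.5 and 97.8 CPM in WT and 7.26, 22.5 and 36.0 CPM in Pon2-/- HSCs as lowest, median and highest level and a log2 fold change of -1.11 (SE 0.48). The receptor sheddase gene Adam17 followed (log2 fold change 0.74, SE 0.46). Notch2 was counted in all samples at 16.5 to 121 CPM, and the fringe gene Mfng at 103 to 244 CPM. Target genes of the pathway were low or sparse. Hes1 had at least 10 counts in 5 samples, Dtx1 in 0 and Nrarp in 1, while Hes5 had 2.82 to 37.8 CPM. Dll1 had 0 counts in all 12 samples.

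Among 20 other regulators of early lymphoid cells, 17 were tested and 0 called, with a median log2 fold change of -0.06, 8 values above 0 and 9 below. Zeb2 (log2 fold change -0.55, SE 0.37) and Lyl1 (0.29, SE 0.21) had the smallest unadjusted p, 0.163 and 0.179. The genes Myb, Mef2c and Bcl11a were each above 60 CPM in every sample. The E protein inhibitor gene Id2 was 21.9 to 64.2 CPM in WT and 0 to 65.4 CPM in Pon2-/- HSCs. Id3 had 0 counts in all WT samples and at least 10 counts in 2 Pon2-/- samples.

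Il7r (chr15:9505788-9530176, minus strand), the gene of the IL-7 receptor α chain, is used in the sorting of common lymphoid progenitors and is low or absent on HSCs. It had 176 counts (8.14 CPM) in Pon2-/- replicate 5 and 0 counts in each of the other 11 samples. Summed over the 6 samples, the Pon2-/- counts were at least 58.7-fold higher than the limit of 3 counts over the WT group, and without Pon2-/- replicate 5 no fold could be given. The two-sided exact permutation test gave p = 1.0, since 1 sample decides the comparison.

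Of the other components of IL-7 signalling, 10 or 11 of 11 had at least 10 counts in each sample, the cytokine gene Il7 being the exception with 0 to 5 counts in WT replicates 2 and 4 and Pon2-/- replicate 3. All 11 genes of this list were tested and 0 called, with a median log2 fold change of -0.09. Il2rg, the common γ chain with which Il7r pairs, was 142 to 215 CPM in WT and 111 to 289 CPM in Pon2-/- HSCs. Of the signal transducers, Jak1 was 322 to 528 CPM over the 12 samples, and Stat5b had the smallest unadjusted p (0.0267). The lowest, median and highest level of Stat5b was 13.1, 37.1 and 42.7 CPM in WT and 40.8, 58.9 and 72.9 CPM in Pon2-/- HSCs (log2 fold change 0.86, SE 0.35), with a small overlap of the genotypes. Jak3, the kinase bound by the γ chain, had a log2 fold change of 0.82 (SE 0.45, unadjusted p = 0.0913). Bcl2, a survival gene downstream of the receptor, had -0.84 (SE 0.47).

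Dntt (chr19:41029275-41059525, plus strand) encodes terminal deoxynucleotidyl transferase, which adds bases without a template at the joints of antigen receptor genes. It had 4366 counts (202.0 CPM) in Pon2-/- replicate 5, 597 counts (24.1 CPM) in WT replicate 3, 141 counts (8.47 CPM) in Pon2-/- replicate 6 and 0 counts in the other 9 samples. Both genotypes thus held samples with and without the transcript. The ratio of summed counts of Pon2-/- to WT was 7.55, but it was 0.236 without Pon2-/- replicate 5 and at least 1502-fold without WT replicate 3. These ratios are of raw counts and were not scaled for the total counts or the number of samples per group. The two-sided exact permutation test gave p = 0.727.

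Rag1 (chr2:101638282-101649501, minus strand) encodes a subunit of the recombinase that cuts antigen receptor genes. It had 102 counts (5.38 CPM) in WT replicate 2, 1 count in WT replicate 1, 1 count in Pon2-/- replicate 2 and 0 counts in 9 samples. The ratio of Pon2-/- to WT counts, also not scaled, was 0.00971. Its 95% counting interval of 0.000243 to 0.0553 covers counting error only and not the spread between mice. Without WT replicate 2 both genotypes were at the limit, and the two-sided exact permutation test over all samples gave p = 0.727. Rag2, its neighbour in the genome and partner in the enzyme, had 170 counts in Pon2-/- replicate 5 and 0 counts elsewhere. No sample therefore held counts of both subunits. The samples with Dntt and with Rag1 also differed, and in Pon2-/- replicate 5 Dntt and Rag2 were counted without Rag1.

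Ebf1 (chr11:44617317-45008091, plus strand) encodes the factor that specifies the B lineage. The WT samples had 1, 439, 332, 192, 17 and 0 counts and the Pon2-/- samples 13, 2, 0, 22, 737 and 0 counts, from replicate 1 to 6. In WT HSCs, 3 samples had 13.4 to 23.2 CPM and the other 3 had at most 1.23 CPM, and in Pon2-/- HSCs replicate 5 alone had more than 1.53 CPM, at 34.1 CPM. The log2 fold change was -0.53 (SE 1.88, 95% confidence interval -4.58 to 3.51) and moved between -4.20, without Pon2-/- replicate 5, and 0.03, without WT replicate 2. Its partner Pax5 had 258 counts in Pon2-/- replicate 4, where Ebf1 had 22 counts, 27 in WT replicate 4, 11 in Pon2-/- replicate 5 and at most 3 counts in other samples. Over the 12 samples, Reps2 had the log2 CPM most like that of Ebf1 (r = 0.90).

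Cd79b (chr11:106311341-106314762, minus strand) was the B-lineage member present in every sample, at 25.5, 62.9 and 207.6 CPM in WT and 58.8, 125.5 and 160.3 CPM in Pon2-/- HSCs as lowest, median and highest level. In WT HSCs, 5 of 6 samples lay at or below 82.3 CPM, and WT replicate 2 was the highest of all samples. In Pon2-/- HSCs, 5 of 6 samples lay at or above 89.0 CPM. The log2 fold change was 0.54 (SE 0.44, 95% confidence interval -0.39 to 1.48), the two-sided exact permutation test gave p = 0.126, and without WT replicate 2 it gave p = 0.0152 (1.13 on the log2 CPM scale). Cd79a encodes Igα, with which Igβ forms the signalling pair, and it had 0 counts in 5 of the 12 samples, in each of which Cd79b had at least 415 counts. Where Cd79a was counted it had 107 to 4212 counts. Cd79b was thus counted with and without Cd79a, and the samples with counts of Cd79a were 3 WT and 4 Pon2-/- samples. Ctxn1 had the log2 CPM most like that of Cd79b (r = 0.84).

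Ighm (chr12:113418558-113422730, minus strand, annotated as a constant-region gene) had 503, 2402, 1480, 228, 3243 and 0 counts in WT and 2822, 337, 181116, 1062, 3663 and 175 counts in Pon2-/- HSCs, from replicate 1 to 6. The lowest, median and highest level was 0, 40.5 and 235 CPM in WT and 10.5, 121 and 10299 CPM in Pon2-/- HSCs. Pon2-/- replicate 3 held 91.9% of all its counts, and there Ighm took 0.979% of the library. The log2 fold change was 4.54 (SE 1.79, 95% confidence interval 0.70 to 8.38, unadjusted p = 0.0239, adjusted p = 1.00 in edgeR's quasi-likelihood test with Benjamini-Hochberg adjustment, 0.0555 to 1.00 over the alternatives). Without Pon2-/- replicate 3 it was 0.18, and without Pon2-/- replicates 3 and 5 it was -0.21. The two-sided exact permutation test gave p = 0.327. DESeq2 with its cutoff for outlying counts gave no p for Ighm. Myd88 had the pattern most like that of Ighm (r = 0.85).

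**Figure D3:**
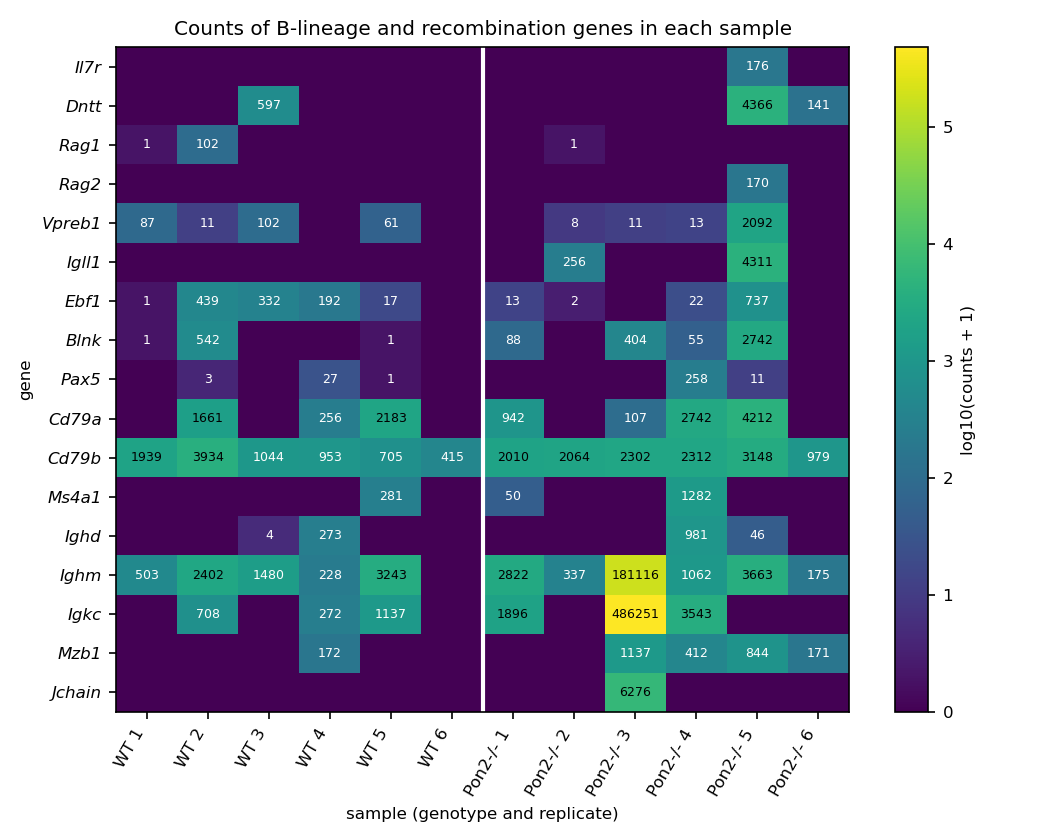
Counts (printed, and as colour on a log10(counts + 1) scale) of 17 genes of recombination, the B lineage and plasma cells in the 12 samples; empty cells are 0 counts. Cd79b is counted in all samples, whereas most other genes fill different columns, with Il7r, Rag2 and 4366 counts of Dntt in Pon2-/- replicate 5 and 181116 counts of Ighm in Pon2-/- replicate 3.

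The samples with high counts of members differed in which other B-lineage genes were counted. In Pon2-/- replicate 5, the genes of the surrogate light chain that pairs with the μ chain in pre-B cells were high, with 2092 counts of Vpreb1 and 4311 counts of Igll1, together with 2742 counts of the adaptor gene Blnk. It held 0 counts of Igkc, the κ light-chain constant gene. Pon2-/- replicate 3 held 486251 counts of Igkc, the highest of any gene in that sample, 6276 counts of Jchain and 1137 counts of Mzb1, genes of antibody-secreting cells, but 0 counts of Ms4a1 and Igll1. It also held 0 counts of Irf4, another plasma cell marker. Jchain had 0 counts in all other samples. Mzb1 also had 844 counts in Pon2-/- replicate 5, 412 in replicate 4, 171 in replicate 6 and 172 in WT replicate 4. Pon2-/- replicate 4 held 1282 counts of Ms4a1 (CD20) and 981 counts of Ighd, genes of mature B cells, and 3543 counts of Igkc. In WT HSCs, replicate 5 had 281 counts of Ms4a1 and 2183 counts of Cd79a, and replicate 2 had 1661 counts of Cd79a and 708 counts of Igkc beside its 102 counts of Rag1. WT replicate 6 had 0 counts of Ighm, Ebf1, Cd79a and Igkc.

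B-lineage markers were therefore present in samples of both genotypes. Of 25 markers, 6 to 18 had at least 10 counts in WT and also 6 to 18 in Pon2-/- samples, and their summed level was 273 to 884 CPM in WT and 587 to 28238 CPM in Pon2-/- HSCs, the latter in replicate 3. Cd74 (101 to 616 CPM) and Cd72 (up to 166 CPM) were counted in every sample. Of the 25 markers, 9 were tested and 0 called, with 8 values above 0 and a median log2 fold change of 0.75, which includes Igkc (7.64, SE 3.0), a gene with 0 counts in 6 samples. Plasma cell markers (2 of 7 tested, 0 called) summed to 0.145 to 24.0 CPM in WT and 4.90 to 459.5 CPM in Pon2-/- HSCs, with the highest value in replicate 3. Sdc1 was also highest there, with 21.3 CPM. In contrast, Derl3 was highest in WT replicate 6 (18.8 CPM), Prdm1 in WT replicate 1 (14.5 CPM) and Irf4 in WT replicate 3 (8.51 CPM). The sort was meant to leave out such cells, since its lineage antibodies included B220 and the gate required Sca1 and ckit. The part of such cells in the levels of Il7r, Dntt, Rag1, Ebf1, Cd79b and Ighm was not tested, and in these bulk samples fewer cells of a type and less RNA per cell cannot be told apart.

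T-cell genes gave another picture. Of 20 T-lineage markers, 9 had 0 counts in all 12 samples, among them Cd3e, Cd5, Cd8a and the T-cell receptor constant genes Trac, Trbc1 and Trbc2. Gata3 (9.92 to 70.8 CPM) and Lck (0 to 57.7 CPM) were the 2 markers tested and were not called, and Lef1, Cd4 and Cd247 reached 8.47, 6.24 and 4.15 CPM in their highest sample. Of 10 NK and innate lymphoid markers, 2 were tested and 0 called, Nkg7 with 0.661 to 242 CPM and Klrb1c with 0 to 28.9 CPM, while Eomes, Ncr1 and Klre1 stayed at or below 1.11 CPM. Myeloid markers (11 of 14 tested, 0 called) also varied widely, from 878 to 12032 CPM in WT and from 843 to 19248 CPM in Pon2-/- HSCs. Ms4a3 (log2 fold change 1.60, SE 1.84) and Mpo (-1.17, SE 1.39) had the smallest unadjusted p of that list.

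**Figure D4:**
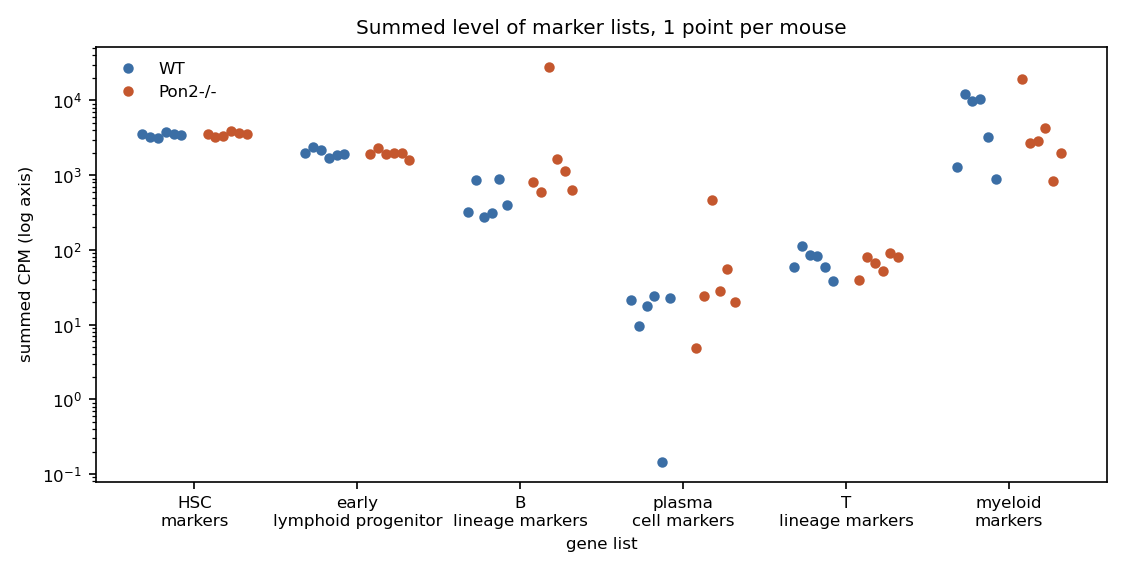
Summed CPM (log axis) of 6 marker lists per mouse, WT in blue and Pon2-/- in orange. The HSC list lies between 3133 and 3876 CPM in all 12 samples, whereas the B-lineage list reaches 28238 CPM and the plasma cell list 459.5 CPM in Pon2-/- replicate 3.

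Of 13 genes of early lymphoid progenitors, 9 were tested and 0 called, with a median log2 fold change of -0.03. Cd27, a receptor of the TNF family, had the smallest unadjusted p (0.0242), with a median of 208 CPM (highest 288 CPM) in WT and of 304 CPM (highest 336 CPM) in Pon2-/- HSCs and a log2 fold change of 0.43 (SE 0.17). Gimap6 followed (-0.35, SE 0.18). Flt3, the receptor that marks lymphoid-primed progenitors, had a log2 fold change of 0.62 (SE 0.49). Ly6d, which marks B-cell-biased progenitors, was at 0 in 4 samples and reached 136 CPM in WT replicate 5. The HSC markers (18 of 18 tested, 0 called) had a median log2 fold change of -0.08, and Cd48, a marker of progenitors rather than of LT-HSCs, had the smallest unadjusted p (0.0167) with 1.02 to 72.1 CPM in WT and 61.3 to 205 CPM in Pon2-/- HSCs (1.68, SE 0.62). Ly6a came next (0.36, SE 0.21). The part of cells with Cd48 in the level of Ikzf1 was not tested.

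Per length, the mean level of the members over the 12 samples ran from 494.7 CPM per kb of exons for Ighm through 69.2 for Cd79b, 12.8 for Ikzf1, 12.6 for Tcf3, 8.53 for Dntt, 1.48 for Notch1, 0.763 for Ebf1, 0.673 for Satb1 and 0.146 for Il7r to 0.0690 for Rag1. The ranges of all neighbours in this order overlapped. Cd79b lay above Ikzf1 in 12 of 12 samples and Tcf3 above Dntt in 11, whereas Ikzf1 and Tcf3 exchanged places, with Ikzf1 higher in 6 of 12. The order by the mean was the reverse of that in most samples for 3 pairs, since Ighm lay above Cd79b in 4 of 12 samples, Dntt above Notch1 in 3 and Ebf1 above Satb1 in 4. By the median per kb, Cd79b came first with 59.9, before Ighm with 35.3, Ikzf1 with 13.0 and Tcf3 with 11.8, and Il7r, Dntt and Rag1 were at 0.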

How the data were processed

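RNA-seq data of HSCs from 6 WT and 6 Pon2-/- mice were analysed. Smart-seq2 reads, trimmed in Trimmomatic 0.36, were aligned by the authors with STAR 2.5.3a (GRCm38.p5, GENCODE release M12), and raw counts per gene were deposited, without normalization or filter (versions per the submitters' processing notes). The single count column was taken as unstranded, which the sources used here do not state. Each table held 1 line without a gene, with 0 counts. Names, positions and exon lengths came from GENCODE M21 (GRCm38), which named 49326 of the 49585 genes. Groups came from the labels, and replicates are separate mice.

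Counts were analysed in R 4.3.3 with edgeR 4.0.16 (TMM, filterByExpr, glmQLFit and glmQLFTest). CPM used the totals of the genes tested. Log2 CPM used a prior count of 2. Exact permutation tests covered all 924 relabellings. Alternatives used DESeq2 1.42.0, limma 3.58.1, other filters, a replicate block and leaving out samples. The procedure was tested on simulated data with 200 changed genes, where edgeR called 127 genes, 3 of them wrongly, DESeq2 217 (68 wrongly) and voom 69 (1 wrongly). Over all 66 pairs of samples, the lowest chi-square per degree of freedom was 146.2 within and 159.9 between genotypes, so no library was a copy of another.

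The members and gene lists were chosen with earlier results of these data known. Named genes were the members, Pon2, preset partner genes and HSC markers, called list genes or the 2 with the smallest p, the 5 with the highest CPM in the B, T, plasma and NK lists, and up to 3 genes most like each tested member. Other genes were named after their values were seen. Some genes of the lists are counted but not reported here by name. Same-numbered samples were not treated as pairs.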

Additional observations from a re-analysis of the deposited data

Results flagged for a closer look

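In the 20 groups of 6 samples (10 genes in 2 genotypes), 1 sample lay farther from the others than Dixon's 95% limit allows in 7 groups on the log2 CPM scale and in 8 groups on the CPM scale, which chance gives in about 1 in 20 groups of normally distributed values, a condition that sparse counts do not meet. On both scales, Il7r was highest in Pon2-/- replicate 5, at 8.14 CPM, with 0 in the other Pon2-/- samples, and Dntt was highest in WT replicate 3, at 24.1 CPM, with 0 in the other WT samples. Rag1 was also highest on both scales in WT replicate 2, at 5.38 CPM, and in Pon2-/- replicate 2, at 0.0431 CPM, which is 1 count. On the log2 CPM scale alone, Satb1 was lowest in Pon2-/- replicate 3, at 0 CPM, where the next sample had 6.69 CPM. Notch1 was lowest in Pon2-/- replicate 4, at 3.40 CPM, against 14.2 CPM in the next sample, and Ighm was lowest in WT replicate 6, at 0 CPM, against 17.8 CPM in the next WT sample. On the CPM scale alone, Ighm was highest in Pon2-/- replicate 3, at 10299 CPM against 169 CPM in the next sample. In Pon2-/- replicate 5, Dntt was highest at 202.0 CPM against 8.47 CPM in the next sample, and Ebf1 at 34.1 CPM against 1.53 CPM. Cd79b was highest in WT replicate 2, at 207.6 CPM against 82.3 CPM in the next WT sample.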

How the results depend on the processing

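The number of all genes called, 24 in edgeR, was 8 without a filter, 304 in DESeq2, 966 in DESeq2 without Cook's cutoff, 5 with a replicate block, 8 without Pon2-/- replicates 3 and 5 (chosen after seeing the data) and 20 to 28 when single samples were left out. The cause of these shifts was not tested. The members called stayed at 0 under all alternatives other than DESeq2 without Cook's cutoff, where 1 (Il7r) was called, and were 0 to 0 without single samples. With that cutoff, DESeq2 gave no p for Ighm, Il7r, Dntt and Rag1. DESeq2 called 6 list genes (among them Id3, Cd4, Hbb-bt, Ctsg and Blk) against 0 in edgeR, where leaving out single samples gave 0 to 1 (Hbb-bt, without Pon2-/- replicate 4). Members with an exact permutation p below 0.05 were 1, and 1 to 2 without single samples (Cd79b without WT replicate 2, Tcf3 without Pon2-/- replicate 6). By the median, 3 of 10 members kept their place in the order per length. Without Pon2-/- replicates 3 and 5, the log2 fold change of Ighm turned to -0.21 and the difference in mean log2 CPM of Satb1 to 0.33. Leaving out single samples moved the log2 fold change of Ebf1 from -4.20 to 0.03 and of Satb1 from -0.81 to 0.18, and the difference in mean log2 CPM of Notch1 from -0.66 to 0.17, of Satb1 from -1.33 to 0.61 and of Dntt from -0.04 to 2.86. Of 305 values of single genes under alternatives, 295 kept their direction and side of the threshold. The correlations of the deviations of same-numbered samples were 0.001 to 0.043, and the replicate block called 0 members. In replicate 2 alone, this match was the best for both samples. Within each genotype, pairs among replicates 4 to 6 had the lowest chi-square per degree of freedom. It was 146.2 to 173.6 in WT and 169.8 to 180.3 in Pon2-/- samples, against at least 192.9 and 214.3 in other pairs. The chi-square of raw counts grows with the total count. WT replicates 4 to 6 had the lowest totals in WT, 12967791 to 16054035, whereas Pon2-/- replicate 5 had 21418796. Spi1, one of the other listed regulators, was 173 to 308 CPM in replicates 1 to 3 and 37.6 to 114 CPM in replicates 4 to 6. A batch shared by several numbers was not tested. With a biological coefficient of variation of 99.2%, low and sparse members limit what can be seen.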

Other observations

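Variable genes of the immunoglobulin loci, chosen after their values were seen, were also counted. Of 185 heavy-chain variable genes in the count data, 20 had at least 10 counts in some sample, of 160 κ variable genes 8, and of 3 λ variable genes 2, while the 3 constant genes of the T-cell receptor α and β chains had 0 counts throughout. Pon2-/- replicate 3 held 28750 counts of Ighv11-2, which made up 99.7% of its heavy-chain variable counts, and 354201 counts of Igkv14-126 beside 486251 counts of Igkc, or 2.63% of the library. Ighv11-2 with Igkv14-126 is a pair known from B-1a cells that bind phosphatidylcholine. In Pon2-/- replicate 4 the leading genes were Ighv3-6 (391 counts) and Igkv12-41 (1869 counts), and in Pon2-/- replicate 1 they were Ighv1-75 (500 counts) and Igkv8-24 (1612 counts). In WT replicate 5 they were Ighv9-1 (504 counts) and Igkv17-121 (638 counts), and in WT replicate 2 Ighv1-78 (195 counts) and Igkv4-59 (194 counts). Pon2-/- replicate 5, with Dntt, Rag2 and the surrogate light-chain genes, had at least 10 counts of 4 heavy-chain variable genes, led by Ighv6-3 (225 counts), and 1 count of a κ variable gene. WT replicate 1 had 2 counts of heavy-chain variable genes beside 503 counts of Ighm. WT replicate 6 had 54 counts of Ighv6-6 and 0 counts of Ighm. Variable genes resemble each other, so that the authors' counting may have split or lost reads between them.

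Erythroid markers, 6 of 11 tested and 0 called in edgeR, included Hbb-bt, which had 6.11 to 38.1 CPM in WT and 0 to 1.11 CPM in Pon2-/- HSCs (log2 fold change -7.04, SE 1.65, unadjusted p = 0.000829), and Klf1 (3.60, SE 1.99). Of all list genes tested, Hbb-bt had the smallest unadjusted p. The other globin genes listed overlapped between the genotypes. Hbb-bs was 0 to 11.2 CPM in WT and 0 to 6.65 CPM in Pon2-/- HSCs. In the same order, Hba-a1 was 0 to 4.01 and 0 to 3.67 CPM, and Hba-a2 0 to 4.12 and 0 to 2.28 CPM.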
